A study of Bos taurus with 30 samples.

Results

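The miRNAs described here are those whose precursor genes lie together within CLCN5 on the bovine X chromosome: miR-188, miR-362, miR-500, miR-502a, miR-502b, miR-532 and miR-660. All rows with one of 8 stems (these and miR-501), in any arm, were taken, which gave 8 members of 1030 mature miRNAs listed, 863 of which had a read in at least 1 library. No row of miR-501 was analysed here, and only miR-362 had a row for each of its arms. The set was chosen by measured values: earlier work on the same libraries had found miR-188 and miR-502a moving in opposite directions along the order of the animal codes. The question was whether miRNAs from a single host gene varied together between calves.

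The libraries came from the hypothalamic arcuate nucleus (ARC) of 30 Holstein-Friesian bull calves, 1 library per calf, all sampled at 12 weeks of age. From week 2, the 15 calves of the high plane group (HI) received 1.5 kg of milk replacer per day in 10 litres, with concentrates freely on offer. The 15 calves of the moderate plane group (MOD) received 0.5 kg of milk replacer per day in 4 litres and 0.5 kg of concentrates. The ARC is a small nucleus at the base of the hypothalamus, next to the pituitary stalk, and holds neurons that sense nutritional state and control feeding and reproduction. Recovered depth ran from 6291376 to 21083250 reads per library, with a median of 8635354. The median was 8512614 reads in HI and 8811432 in MOD calves.

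A miRNA is a short RNA cut from a hairpin and loaded into an Argonaute protein, which it guides to matching messenger RNAs to repress them. Hairpins inside a host gene can be made from the host's transcript, so that several hairpins of an intron may share one primary RNA, but each is then cut, loaded and degraded on its own. CLCN5 codes for a chloride and proton exchanger of endosomes and is best known from the kidney, where its loss causes Dent disease. Its miRNA cluster is found across placental mammals, and several of its hairpins are related in sequence.

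RefSeq (assembly ARS-UCD2.0) places 8 miRNA genes within the span of CLCN5 (gene ID 493644) on chromosome X, with 1 other gene, a tRNA, between its ends. In chromosome order these are MIR532, MIR188, MIR502A-2, MIR502B, MIR362, MIR500, MIR660 and MIR502A-1, with hairpins of 65 to 90 bases. All 8 members had a precursor in this list. miR-502a is the only member with a gene in 2 places. Its reads were counted in steps of less than 1 read in 15 of the 30 libraries, whereas every other member was at whole reads in all 30. Reads that match related hairpins of the cluster could have been split or shared between them by the counting, which limits what can be said of miR-502a, miR-502b and miR-500 one by one.

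Levels are given as counts per 1000000 reads (CPM) on the scale deposited for each library. The cluster summed to between 6726 and 11133 CPM per calf, with a median of 8366 CPM. miR-660 made up most of this in every calf, between 78.0% and 86.0% of the sum. Its level was lowest at 5377 CPM, had a median of 6940 CPM and was highest at 8889 CPM, from 39914 to 178209 reads. miR-532 followed at 1002 to 1953 CPM with a median of 1239 CPM, or 11.8% to 18.7% of the sum. The level of miR-660 was above that of miR-532, and that of miR-532 above that of miR-502b, in 30 of 30 calves.

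The other 6 members lay far lower. miR-502b had a median of 64.1 CPM (38.5 to 96.6 CPM) and miR-502a a median of 48.9 CPM (39.9 to 86.1 CPM). miR-188 had a median of 45.7 CPM, from 24.6 CPM at its lowest to 59.6 CPM at its highest. In the order of levels these neighbours were not well separated, since miR-502b was above miR-502a in 26 calves and miR-502a above miR-188 in only 17. The order of miR-502a and miR-188 differed with the animal code: miR-502a was the higher in 9 of the 9 calves with the lowest codes and in 8 of the 21 others.

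The arms of miR-362 and miR-500 were the lowest. miR-362-5p had a median of 32.1 CPM (23.3 to 44.5 CPM), miR-500 of 27.7 CPM (21.01 to 36.8 CPM) and miR-362-3p of 11.3 CPM (7.42 to 25.9 CPM). miR-188 exceeded miR-362-5p in 24 calves and miR-362-5p exceeded miR-500 in 26, while miR-500 was above miR-362-3p in all 30. miR-362-3p rested on as few as 75 reads in 1 library. At its median of 98.5 reads, counting error alone would give its log2 level an SD of 0.145, against an SD of 0.358 between calves of the same code class. For miR-660 the same SDs were 0.00586 and 0.160, so depth did not limit the precision of that member.

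The animal code is the number in each calf's label. The sources do not say what its order stands for, and the division into the 9 lowest codes and the 21 others was made in earlier work from the values themselves, so it is not a group of the study. Of the 9 calves, 7 were HI and 2 were MOD, against 8 HI and 13 MOD among the others. All 9 had shallower libraries, as had 12 of the others. Since this contrast chose the members, it is described without a test.

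miR-188 was low in all 9 calves with the lowest codes. It ranged from 24.6 to 31.4 CPM there (28.2 ± 2.22 CPM, SD, n = 9), below the lowest of the 21 others at 35.4 CPM (47.5 ± 5.33 CPM, n = 21). miR-502a went the other way, at 58.0 to 86.1 CPM (72.6 ± 9.67 CPM) against 39.9 to 62.8 CPM (46.9 ± 6.21 CPM), and 7 of the 9 calves lay above every other calf. The ratio of miR-188 to miR-502a therefore did not overlap, at 0.310 to 0.541 in the 9 calves and 0.655 to 1.28 in the rest. The 2 MOD calves among the 9 behaved as their HI companions did, with miR-188 at 26.2 to 28.9 CPM and miR-502a at 65.5 to 77.2 CPM.

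**Figure D1:**
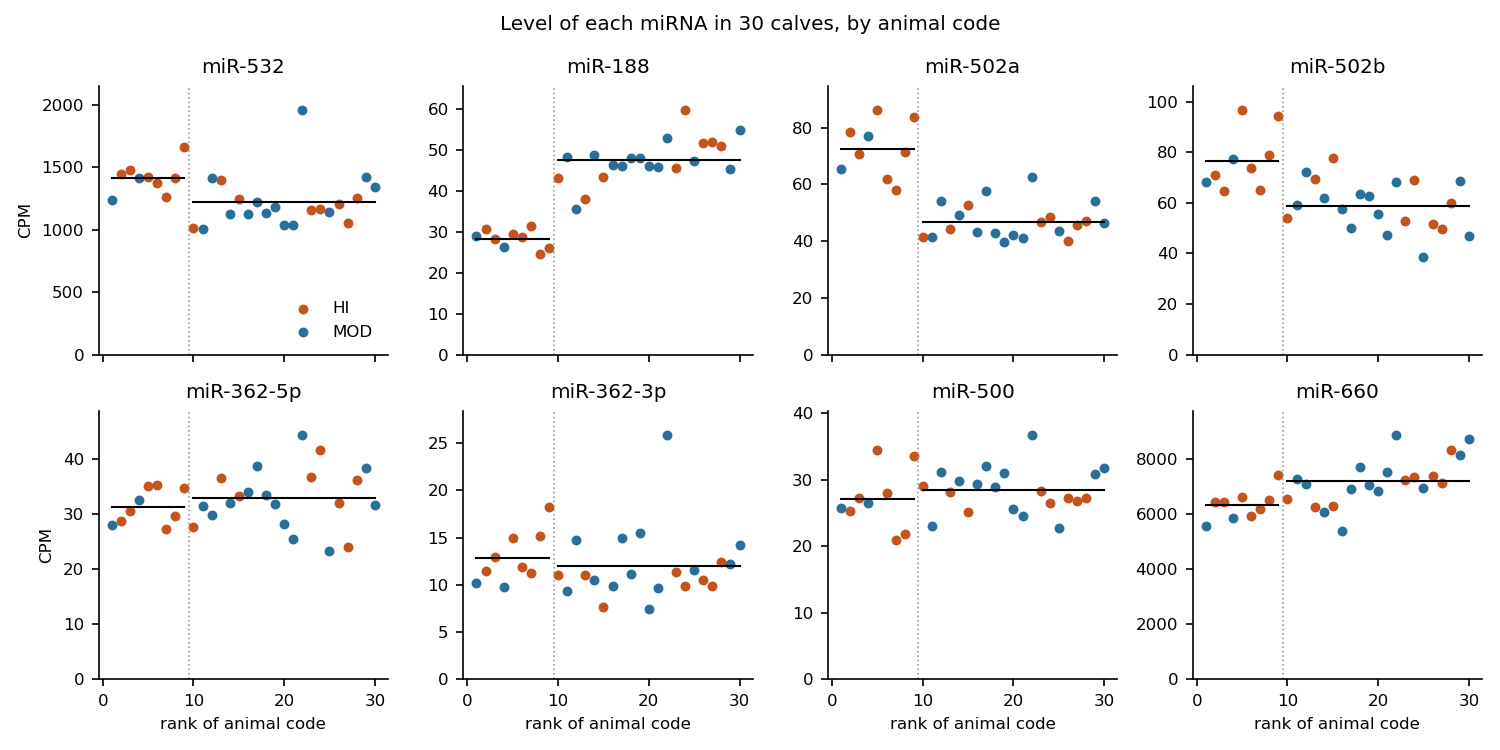
Level of each of the 8 miRNAs (CPM, linear axes from 0) in the 30 calves ordered by the rank of their animal code, with HI calves in orange and MOD calves in blue. The dotted line parts the 9 lowest codes from the 21 others and the bars are the class means. miR-188 steps up at the line from 28.2 to 47.5 CPM and miR-502a steps down from 72.6 to 46.9 CPM, while MOD calf A73759 (rank 22) is the highest point for miR-532, both arms of miR-362, miR-500 and miR-660.

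The remaining members fell between these extremes. As log2 differences of the 9 lowest codes from the others, miR-188 was at -0.74 and miR-502a at 0.63, with miR-502b at 0.39, miR-532 at 0.22 and miR-660 at -0.18. Smaller differences were seen for miR-362-3p (0.13), miR-362-5p (-0.06) and miR-500 (-0.08). Members of both signs thus came from within CLCN5, and the level of miR-502a cannot be assigned to either of its 2 genes. The median difference was 0.04 for the members and -0.02 for all 476 miRNAs that passed the filter on low values.

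Both named members were large, but not extreme, among all miRNAs. In absolute size the code difference of miR-188 lay at percentile 92.4 and that of miR-502a at percentile 90.1 of the 476. Of the 8 members, 1 was lower with no overlap between the classes (miR-188), where 1.05% of all tested miRNAs were, and 0 were higher with no overlap, where 0.42% were. Set against the 12 other shallower libraries alone, miR-188 was again below without overlap (1.89% of all miRNAs) and miR-502a was above without overlap, at 58.0 to 86.1 CPM against 40.2 to 57.6 CPM (0.84%). The scaling of the libraries mattered to the smaller differences. With library size as the only scaling all 8 members shifted downwards by nearly the same amount, miR-188 to -1.01 and miR-502a to 0.35. With this common shift miR-532 (-0.05) and miR-362-3p (-0.13) changed sign.

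**Figure D2:**
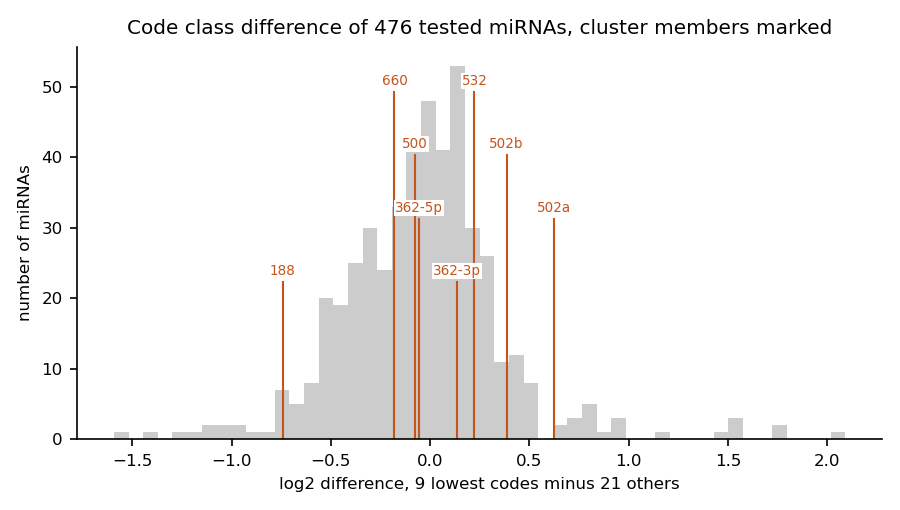
Number of tested miRNAs (vertical axis) by their log2 difference between the 9 calves of lowest code and the 21 others (horizontal axis, positive when higher in the 9). Grey bars are all 476 miRNAs and orange lines mark the 8 members, whose heights only separate the labels. miR-188 (-0.74) and miR-502a (0.63) stand towards opposite ends and miR-362-5p (-0.06) and miR-500 (-0.08) near the middle.

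To ask whether the members varied together apart from this contrast, each log2 level was centred on the mean of its code class and Pearson's r was computed over the 30 calves. Its two-sided p came from 100000 permutations of calves within classes, adjusted by Benjamini-Hochberg over all 3772 relations of a member with another tested miRNA. Of the 28 pairs of members, 12 were positively related at an adjusted p under 0.05 (42.9%) and 0 negatively. Relations of a member with a miRNA outside the cluster were positive at that level in 308 of 3744 cases (8.23%) and negative in 341 (9.11%). The median r was 0.44 for the member pairs and -0.03 for the relations with other miRNAs.

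All 12 related pairs came from the 21 pairs without miR-188, which had a median r of 0.52 and a range of 0.06 to 0.75. The 7 pairs with miR-188 had a median r of -0.03, and 0 of them passed. This depended on the scaling: with library size only, 12 pairs again passed (12.6% of the relations with other miRNAs), of which 9 were among the same 12 and 3 were pairs of miR-188, with miR-660 (r = 0.76), miR-362-5p (0.53) and miR-500 (0.49). The 12 pairs had a positive r within the 9 calves with the lowest codes and within the 21 others alike. miR-502a entered 5 of the 12 pairs, miR-532, miR-362-5p, miR-362-3p and miR-500 entered 4 each, miR-502b 2 and miR-660 1. Whether the miR-188 pairs differed from the rest was not tested.

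The count of related pairs fell with the number of calves and with the measure. In the 21 calves alone 4 pairs passed, where 1.39% of the relations with other miRNAs did, all of them among the 12: miR-532 with miR-502a, miR-362-3p and miR-500, and miR-362-3p with miR-500. In the 9 calves alone 0 passed (0.0267%), although the median r of the 28 pairs was 0.59 there against 0.43 in the 21. By Spearman's rho 5 pairs passed (2.59%), again all among the 12: miR-532 with miR-502a, miR-362-5p and miR-362-3p, and miR-500 with both arms of miR-362.

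**Figure D3:**
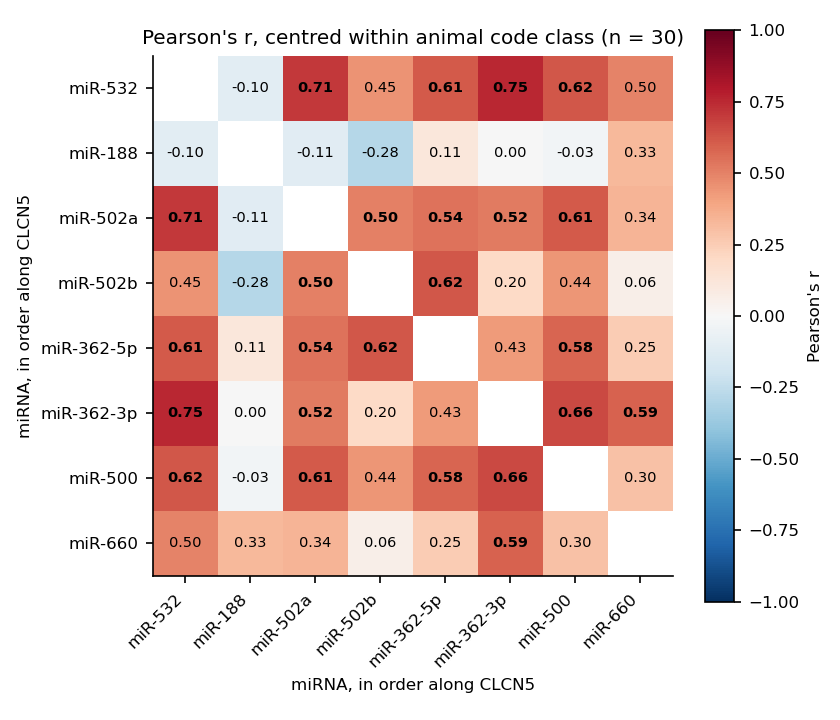
Pearson's r of each pair of members over 30 calves, with levels centred within animal code class. Rows and columns follow the order of the genes along CLCN5, colour gives r from -1 (blue) to 1 (red), and bold figures mark the 12 pairs with an adjusted p under 0.05. On the deposited scaling the row of miR-188 is pale throughout, from -0.28 to 0.33, and most other rows are red, whereas with library size only r of miR-188 with miR-660 is 0.76.

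Among the members the closest pair was miR-532 with miR-362-3p (r = 0.75, permutation p = 5e-05, adjusted p = 0.00320). Its Spearman's rho was 0.65 (permutation p = 0.0002), and r was 0.76 in the 21 calves and 0.72 in the 9. Without the 2 calves farthest from the median of miR-532 r was 0.51. miR-532 with miR-502a had an r of 0.71 (permutation p = 3e-05, adjusted p = 0.00251) and a rho of 0.67 (permutation p = 4e-05), with r at 0.73 and 0.72 in the classes and 0.58 without the farthest calves. miR-362-3p with miR-500, whose genes are neighbours, had an r of 0.66 (permutation p = 6e-05, adjusted p = 0.00354) and a rho of 0.67 (permutation p = 8e-05). That r was 0.78 in the 21 calves, 0.48 in the 9 and 0.51 without the farthest calves.

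Neighbouring genes did not always have a high r. miR-532 and miR-188, the first and second genes in order, had an r of -0.10 (permutation p = 0.60, rho = -0.13 with permutation p = 0.483), with -0.04 in the 21 calves and -0.48 in the 9. That r was -0.34 without MOD calf A73759 and 0.37 with library size only. miR-188 and miR-502a, the next neighbours and the members that had prompted the choice, had an r of -0.04 in the 21 calves and -0.35 in the 9. These r are a description, because this pair prompted the choice and the classes were made from the values. With library size only, their r centred on code class was 0.46, which did not pass. The 2 arms of miR-362, cut from one hairpin, had an r of 0.43 (permutation p = 0.0250, adjusted p = 0.0979, rho = 0.33 with permutation p = 0.0796), which did not pass. For miR-660, the most abundant member, miR-362-3p was the only member related to it on the deposited scaling centred on code class alone (r = 0.59, permutation p = 0.00126, adjusted p = 0.0167, rho = 0.50 with permutation p = 0.0058), with r at 0.42 without the farthest calves. With library size only that r was 0.38 and did not pass, and miR-660 was related to miR-188 instead. With DESeq2 size factors miR-660 was related to miR-362-3p (r = 0.65) and also to miR-532 (r = 0.57). Both pairs passed too with depth class taken out along with code class (r = 0.61 for each). With no centring, which lets in the contrast that chose the members, miR-660 was related to miR-188 (r = 0.55) and not to miR-362-3p.

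The members differed in how many other miRNAs they varied with. miR-532 was positively related to 78 of 468 miRNAs outside the cluster (16.7%) and negatively to 82 (17.5%). miR-362-3p was related to 71 positively (15.2%) and 88 negatively (18.8%). miR-362-5p was positively related to 7 (1.50%) and negatively to 4 (0.855%), and miR-660 to 3 (0.641%) and 6 (1.28%). For miR-362-5p, 4 of its 7 relations inside the cluster passed.

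MOD calf A73759 carried part of these relations. It had the highest level of the 30 in 5 of the 8 members, where 22 of the 476 tested miRNAs (4.62%) were highest in it. miR-362-3p reached 25.9 CPM there, 2.29 times its median, and miR-532 reached 1953 CPM, 1.58 times its median. In contrast, 2 calves were above it in miR-188 (52.7 CPM) and 12 in miR-502b (68.3 CPM). Without this calf 7 pairs passed, with 5.21% of the relations with other miRNAs. The r of miR-532 with miR-362-3p fell to 0.57 (adjusted p = 0.0209, permutation test) and that with miR-502a to 0.61 (adjusted p = 0.00997).

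**Figure D4:**
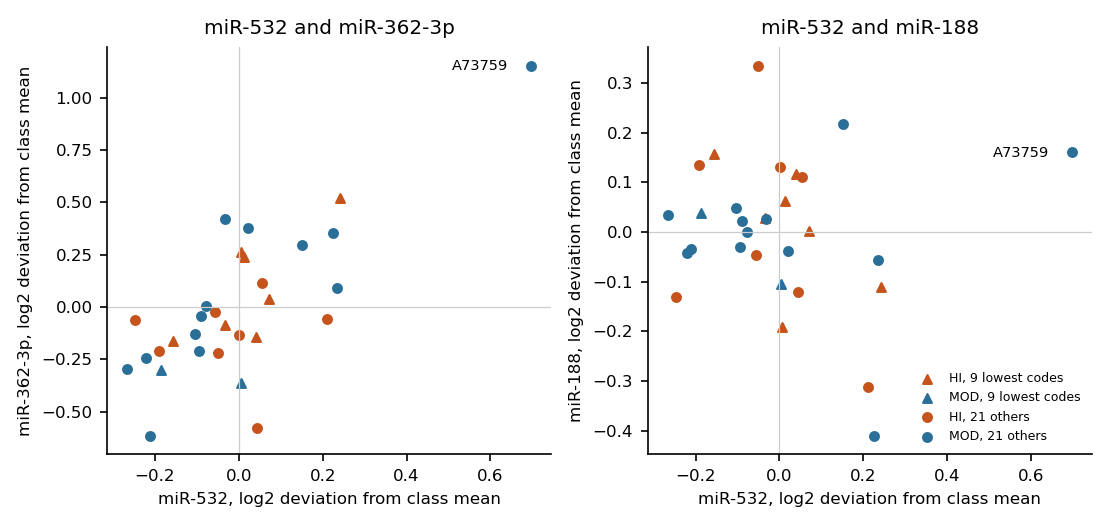
Log2 deviation of each calf from the mean of its code class for miR-532 (horizontal axes) against miR-362-3p (left) and miR-188 (right). Triangles are the 9 calves with the lowest codes, circles the 21 others, orange HI and blue MOD. The left points rise together (r = 0.75, or 0.57 without A73759, the point at the upper right) and the right points do not (r = -0.10, or -0.34 without A73759).

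The ARC libraries also differed in miRNAs of other cell types. In bulk tissue, fewer cells of a type and less RNA per cell cannot be told apart. The summed level of 8 pituitary miRNAs, which include the miR-200 family and miR-375, ran from 2289 to 100359 CPM between calves. It ran from 2323 to 100359 CPM in HI and from 2289 to 83974 CPM in MOD calves, and A73759 had the third highest sum, 66230 CPM. The sum of 4 endothelial and mural cell miRNAs (miR-126, miR-143 and miR-145) ran from 49072 to 338016 CPM and that of 7 neuronal miRNAs from 15869 to 95087 CPM. Code differences ran from -0.20 (miR-145) to 0.79 (miR-143) for these 4 and from -1.17 (miR-138) to 0.02 (miR-9-5p) for these 7. What part such differences have in the code contrast of the members was not tested. On the neuronal list miR-124a and miR-124b had the same code difference (-0.36), so the same reads may have been counted for both. None of the miRNAs on these lists, or on those of 3 oligodendrocyte miRNAs (1424 to 13877 CPM) and 6 blood miRNAs (22333 to 41329 CPM), was at 0 in any library.

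To see which members moved with these lists, levels were centred on code class, and p was adjusted over all 2352 relations of a tested miRNA with a list that did not hold it. Of the 40 relations of a member with a list, 7 were positive at an adjusted p under 0.05 (17.5%), where 18.1% of those of other miRNAs were, and 2 were negative (5%), where 19.7% were. The positive share lay near that of other miRNAs, so it is not particular to the members.

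Of the 8 members, 4 were positively related to the endothelial and mural list, as were 16.0% of 464 other miRNAs, and whether the members differ from these was not tested. miR-532 rose with it (r = 0.70, permutation p = 3e-05, adjusted p = 0.00025, rho = 0.65 with permutation p = 0.00036), with r at 0.65 without the farthest calves. miR-362-3p (r = 0.54, permutation p = 0.00257, adjusted p = 0.00948, rho = 0.59) and miR-500 (r = 0.51, permutation p = 0.00172, adjusted p = 0.00674, rho = 0.56) rose with it too. For miR-502a the relation was weaker (r = 0.44, permutation p = 0.0156, adjusted p = 0.0429, rho = 0.40). Without the farthest calves r was 0.50, 0.44 and 0.36 for these 3.

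The pituitary list was related to 2 members positively, as it was to 23.9% of other miRNAs: miR-532 (r = 0.47, permutation p = 0.00763, adjusted p = 0.0234) and miR-362-3p (r = 0.52, permutation p = 0.00261, adjusted p = 0.00958). These values rested on few calves, since r was 0.19 and 0.33 without the 2 farthest and rho was 0.17 and 0.28. The neuronal list was related positively to 31.9% of other miRNAs and negatively to 26.0%. Among the members it was related to miR-188 positively (r = 0.47, permutation p = 0.00504, adjusted p = 0.0166, rho = 0.37) but with an r of 0.21 without the 2 farthest calves. It was related negatively to miR-362-3p (r = -0.53, permutation p = 0.00354, adjusted p = 0.0124, rho = -0.40) and miR-532 (r = -0.44, permutation p = 0.0109, adjusted p = 0.0315, rho = -0.19), at -0.45 and -0.32 without the farthest. The oligodendrocyte list was related to 0 members, where 15.9% of other miRNAs were related to it positively and 18.3% negatively. The blood list was also related to 0 members, near its shares of 3.03% and 2.38% of other miRNAs. Even so, miR-532 passed with the blood list under DESeq2 size factors (r = 0.47) and without A73759 (r = 0.48).

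The relations with lists changed with single libraries and with the scaling, whereas those of other miRNAs stayed between 16.9% and 17.3% positive and between 17.99% and 18.6% negative in the 3 settings that follow. Without HI calf A37824, which had the highest pituitary sum, 5 of the 9 passed: miR-532, miR-362-3p and miR-500 with the endothelial and mural list, miR-362-3p with the pituitary list and miR-188 with the neuronal list. Without MOD calf A73759, 8 relations passed, of which 6 were among the 9. Both relations with the pituitary list and that of miR-502a with the endothelial and mural list were lost, while miR-188 was negatively related to the pituitary list (r = -0.53, adjusted p = 0.00911, permutation test). With library size only 4 passed, of which 1 was among the 9. They were the neuronal list with miR-188 (r = 0.75), miR-362-5p (0.48) and miR-660 (0.44), and the pituitary list with miR-188 (r = -0.49).

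The relations among the members changed with these scores. With the endothelial and mural score taken out along with the code class, 3 of the 28 pairs passed, where 0.775% of the relations with other miRNAs did: miR-532 with miR-502a (r = 0.62), miR-532 with miR-362-5p (r = 0.62) and miR-362-5p with miR-500 (r = 0.54). With the pituitary score taken out instead, 10 pairs passed (4.11%). Without the 3 calves of highest pituitary sum, 1 pair passed (1.1%), miR-502b with miR-362-5p (r = 0.65). The median r of the 28 pairs was 0.38, 0.46 and 0.30 under these settings, against 0.44 with all calves centred on code class alone. The part that other cell types have in these relations was not tested further.

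Other groups of neighbouring miRNA genes give a scale for these values. The 7 rows of the X chromosome cluster of miR-424, miR-503, miR-542 and miR-450 had a median r of 0.82 over 21 pairs, from 0.68 to 0.93. These rows include both arms of miR-424 and of miR-503, and the highest r was that of the arms of miR-424, from one hairpin. miR-221 and miR-222, neighbours on the X chromosome, had an r of 0.85. miR-106b, miR-93 and miR-25, which lie in an intron of MCM7, had a median r of 0.19 over 3 pairs (-0.06 to 0.39). The CLCN5 members, at a median of 0.44 and a range of -0.28 to 0.75, lay between these. All 113050 pairs of tested miRNAs had a median r of 0.01. These are descriptions over the same 30 libraries, and the difference between clusters was not tested.

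The 3 miRNAs outside the cluster most like its mean profile, by Pearson's r over the 30 calves centred on code class, were miR-542-5p (r = 0.73), miR-24-3p (r = 0.69) and miR-424-5p (r = 0.69). Without A73759 these r were 0.67, 0.62 and 0.55. miR-542-5p and miR-424-5p belong to the X chromosome cluster named above. All 3 were close to miR-532 (0.77 to 0.81) and negative with miR-188 (-0.30 to -0.27). With miR-362-3p, r was 0.81 for miR-424-5p, 0.79 for miR-24-3p and 0.72 for miR-542-5p. The closest pair of members, miR-532 with miR-362-3p, was at 0.75, so its r was not particular to the cluster.

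Turning to diet, the comparison that the study was designed for, no member differed between HI and MOD calves by limma (FDR under 0.1 and fold change over 1.5). The count was 0 of 8 members, and 0 of all 476 miRNAs (0.0%). At an unadjusted p under 0.05 it was 21 of the 476 and 0 of the members. edgeR also called 0 of the 476, with 16 at an unadjusted p under 0.05, and DESeq2 called 1, miR-2419-3p, which is not a member. In simulated data of the same depth and spread, 200 of the 476 miRNAs were changed 2-fold, and 94% of the 200 were called. So large a changed share eases the FDR cutoff. The simulation therefore does not give the power for a few changed miRNAs or for smaller changes.

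In absolute size the largest diet differences were those of miR-188, miR-502b and miR-502a. miR-188 was 24.6 to 59.6 CPM in HI (median 38.0; 38.8 ± 11.3, n = 15) and 26.2 to 54.9 CPM in MOD calves (median 46.2; 44.5 ± 8.07, n = 15). Its log2 fold change, HI against MOD, was -0.22 (SE 0.13, limma p = 0.0989, FDR = 0.912). miR-502a was 40.2 to 86.1 CPM in HI (median 52.6; 58.5 ± 15.9) and 39.9 to 77.2 CPM in MOD calves (median 46.3; 50.8 ± 11), with a log2 fold change of 0.19 (SE 0.12, limma FDR = 0.912). The diets overlapped over most of their range in both.

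miR-502b was 49.6 to 96.6 CPM in HI (68.6 ± 14.3) and 38.5 to 77.3 CPM in MOD calves (59.9 ± 10.6), with a log2 fold change of 0.19 (SE 0.10, limma p = 0.0797, FDR = 0.912). miR-532 was at 1303 ± 173 and 1251 ± 239 CPM and miR-660 at 6813 ± 644 and 7076 ± 1052 CPM, with log2 fold changes of 0.07 and -0.05 (SE 0.08 and 0.07). The others were at 0.02 for miR-362-5p, -0.02 for miR-362-3p and -0.07 for miR-500 (limma FDR at or above 0.982 for these 5). The 95% intervals of all 8 lay within a fold change of 1.5. The widest bound was that of miR-188, whose interval ran from -0.49 to 0.04 in log2. The log2 fold change was above 0 in 4 of the 8 members and in 235 of all 476 miRNAs.

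Diet and code class were unevenly mixed, so the diet values were also taken with code class as a term. Because miR-188 and miR-502a were chosen for their difference between these classes, the term was bound to take up much of their spread, and their values with it are a description. miR-188 was then at 0.03 (SE 0.07) in place of -0.22 and miR-502a at -0.03 (SE 0.08) in place of 0.19. miR-502b was at 0.07 (SE 0.10), and 0 members were called by limma. Within the 9 calves with the lowest codes the difference in mean log2 level, HI less MOD, was 0.04 for miR-188 and 0.02 for miR-502a, and within the 21 others it was 0.02 and -0.04. For miR-362-3p the classes pointed opposite ways, at 0.43 (7 HI and 2 MOD calves) and -0.24 (8 HI and 13 MOD calves), and the difference between them was not tested. The diet effect did not differ detectably between shallower and deeper libraries for any member (limma interaction, smallest FDR = 0.999).

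**Figure D5:**
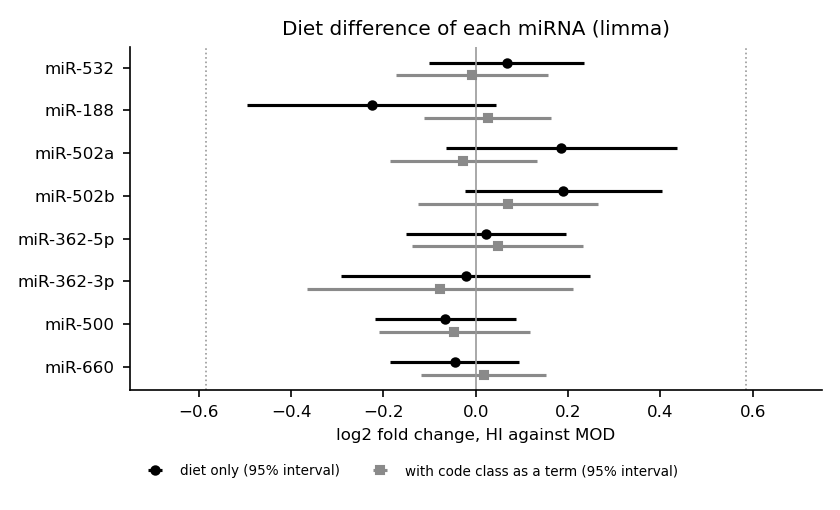
Log2 fold change of each member, HI against MOD (n = 15 each), with the 95% interval from limma. Black circles are the fit of diet alone and grey squares the fit with code class as a term, and dotted lines mark a fold change of 1.5 either way. All 16 intervals span 0 and lie inside the dotted lines, and miR-188 moves from -0.22 to 0.03 with the code term.

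miR-362 was the member for which both strands of the hairpin could be followed. The 5p arm was above the 3p arm in all calves, by 1.72 times in A73759 at the least, 2.68 times at the median and 4.37 times in HI calf A47858 at the most. The log2 ratio of the arms was 1.44 ± 0.346 in HI and 1.40 ± 0.339 in MOD calves, a difference of 0.04 (permutation p = 0.719). It was -0.37 within the 9 lowest codes (7 HI and 2 MOD calves, exact permutation p = 0.111) and 0.28 within the 21 others (8 HI and 13 MOD calves, permutation p = 0.0802). No diet difference in arm use was detected at this number of calves.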

How the data were processed

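Small RNA was sequenced from the ARC of 30 calves. Per the labels and the study's methods, adapters were removed with Cutadapt (2.6 per the labels, while the methods name another version), reads of 15 to 28 bases were kept, and known bovine miRNAs were counted with miRDeep2 2.00.8 and Bowtie 1.1.1 on ARS-UCD1.2. The labels name a stranded RNA kit, whereas the methods name a small RNA kit. The deposited values are a signal that the authors had scaled per 1000000 reads over adjusted library sizes, and how this was done is not given in the sources used here. Low values were multiples of 1 read, and 94.5% to 97.9% of values under 200 reads were whole within 0.05, which gave the depth. A floor of 3 reads was 0.138 to 0.558 CPM and covers counting error only. The 95% intervals are those of a mean difference in log2 level and rest on the variation between calves.

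miRNAs with enough reads (filterByExpr of edgeR 4.0.16, at least 1.16 CPM in 14 libraries, 476 kept, all 8 members among them) were fitted on log2(CPM + 0.25) with limma 3.58.1 in R 4.3.3. Fold changes are therefore on the scale of log2(CPM + 0.25), which understates changes of low miRNAs. edgeR's quasi-likelihood test and DESeq2 1.42.0 were run on recovered reads of 29 libraries, without A31979, in which 94.8% of values up to 20 reads were whole within 0.1, against at least 95.6% in each of the others and a limit of 95%. On simulated data limma called 188 of 200 changed miRNAs and 2 unchanged ones. Permutation tests were two-sided, in Python 3.11.15. The members, the code classes and the marker lists were chosen with earlier results of these data known. The marker lists were named by miRNA stem, and the 3 miRNAs of like profile by rank of r. Adjustment over the members alone had been planned for pairs and for marker lists, and was replaced by adjustment over all relations of a member and over all relations of a tested miRNA with a list. Each calf gave 1 library, so p-values rest on the variation between calves. The RefSeq table is of another assembly, so only names and gene order were taken from it, and no mature sequences were used here.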

Additional observations from a re-analysis of the deposited data

How the results depend on the processing

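No member was called for diet under any of the 13 alternatives run. Among all miRNAs, DESeq2's Wald test called 1. Small diet differences turned with code class as a term, where miR-532 was at -0.0081, miR-188 at 0.026, miR-502a at -0.027 and miR-660 at 0.017 in log2. miR-660 was at 0.0056 with code rank as a term, miR-362-5p at -0.020 with library size only, and miR-362-3p at 0.057 without A73759. The other 89 values of member and alternative kept their direction.

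The count of related pairs, 12 of 28, became 8 with no centring on code class (and 3 negative; 11.1% of other relations positive), 4 in the 21 calves with higher codes, 0 in the 9 with the lowest and 5 with Spearman's rho. It was 16 with DESeq2 size factors (10.7% of other relations) and 9 without A37824 (4.35%). In alternatives chosen after seeing the data it was 7 without A73759, 1 without the 3 calves of highest pituitary sum, 3 with the endothelial and mural score taken out and 10 with the pituitary score. With no centring, the contrast that chose the members enters. Fewer calves also give less power. No other calf was left out singly. Over pairs and alternatives, 114 of 180 values of the 12 called pairs kept the call, and 13 of 240 values of the other pairs gained one, among them miR-188 with miR-500, which turned (r = 0.49 with library size only). The count of relations with marker lists, 9, was 4 with library size only and 5 without A37824. The arm difference of miR-362 was -0.37 within the 9 lowest codes, -0.0079 in the shallower libraries and -0.00017 without A73759. Apart from construction, the cause of these changes was not tested.

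Counting members of near-identical mature sequence once was not run. No paired analysis was possible because each calf received 1 diet and replicate numbers only name calves. In number of reads depth limits miR-362-3p most, at 75 reads in its lowest library. Its counting SD of 0.145 stood against an SD of 0.358 between calves of the same code class. That was a smaller part than for miR-500 (0.0935 against 0.190) and miR-188 (0.0728 against 0.152).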
